A study of Mus musculus with 16 samples.

Results

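The J segments at the 5′ end of the mouse TCRα J cluster, TRAJ48 and every TRAJ with a higher number, were taken from T cell receptor α (TCRα) clone tables. A CDR3 nucleotide sequence belonged to the set where its first J hit carried such a number. Of the 44 J segments that were a first hit in any library, 8 belonged to the set: TRAJ58, TRAJ57, TRAJ56, TRAJ53, TRAJ52, TRAJ50, TRAJ49 and TRAJ48. They accounted for 11955 of 83992 CDR3 sequences (14.23%) and for 121512 of 971532 reads (12.51%). TRAJ61, TRAJ60, TRAJ59, TRAJ55, TRAJ54 and TRAJ51 were never a first hit. GENCODE lists TRAJ59 as a J gene and the other 5 as pseudogenes. The set is called V-proximal J below, because its end of the J cluster faces the V segments.

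A TCRα chain is made by joining 1 V segment to 1 J segment of the Tra locus. In thymocytes the earliest joins tend to use J segments at the 5′ end of the J cluster together with V segments close to it. The locus can rearrange again on the same allele, and each round uses a V segment farther upstream and a J segment farther downstream. The J segment supplies the last part of CDR3, the loop that contacts the peptide, up to its closing phenylalanine. N additions are bases that terminal transferase adds between the trimmed ends of V and J.

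The libraries came from C57BL/6 mice with a Foxp3-GFP reporter, carried by every group, that were either Themis+/+ or Themis-/-, a germline deletion of a protein that sets thymocyte selection thresholds. RNA came from single positive CD8 thymocytes or from lymph node (LN) CD8 T cells, either all TCRαβ+ CD8 cells (all CD8) or cells sorted for Vα3.2, a TRAV9 chain (sorted Vα3.2+). Each of the 8 groups of genotype, tissue and cell subset held 2 libraries. Ages were not given. The design text describes individual mice, whereas the methods describe LN cells pooled from several mice of a genotype, and 1 label names the sorted chain Va2.3 and another Va3,2. The p-values below therefore measure only the spread between these libraries, which may be partly technical.

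The all CD8 libraries held 57455 to 146191 reads and 4357 to 16670 CDR3 sequences, and the sorted libraries 10338 to 25247 reads and 84 to 1610 CDR3 sequences. Sorted CD8 cells can include T cells of other kinds. TRAV11 joined to TRAJ18, the α chain of invariant NKT cells, took 0 to 0.419% of reads in all CD8 libraries, and TRAV1 joined to TRAJ33, the α chain of MAIT cells, took 0 to 0.0424%. Both were at 0 in the sorted libraries. Reads carried no molecular identifiers, so intervals and limits cover counting error only.

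Both kinds of library differed in the 3′ ends of their CDR3 sequences, and this touches every count of distinct sequences. The last 9 bases of CDR3 were those of the germline J segment in 99.71% of the V-proximal J sequences of the sorted libraries, but in only 48.61% of those of the all CD8 libraries. In the 8 all CD8 libraries this share was 45.9 to 51.5% of V-proximal J sequences and 67.7 to 73.3% of their reads. For all other J segments it was 42.2 to 50.3% of sequences and 62.4 to 69.5% of reads. The cause was not tested. Shares of reads are given first below, and results on sequences are also given for those with the germline J end where the call changes.

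The germline J segments are printed in full, since their 5′ part enters CDR3 and sets most of its length. Capitals mark the bases that fall inside CDR3, up to the codon of the closing phenylalanine. The segments lie in this order on the plus strand of chromosome 14 (GRCm38, GENCODE M21).
TRAJ58, chr14:54157280-54157342: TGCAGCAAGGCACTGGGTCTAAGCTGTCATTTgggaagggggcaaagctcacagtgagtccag
TRAJ57, chr14:54158507-54158569: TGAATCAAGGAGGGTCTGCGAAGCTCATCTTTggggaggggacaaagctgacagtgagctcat
TRAJ56, chr14:54159263-54159325: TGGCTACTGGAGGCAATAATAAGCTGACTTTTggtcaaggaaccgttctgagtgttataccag
TRAJ53, chr14:54162644-54162709: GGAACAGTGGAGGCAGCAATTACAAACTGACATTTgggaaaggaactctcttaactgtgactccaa
TRAJ52, chr14:54165316-54165381: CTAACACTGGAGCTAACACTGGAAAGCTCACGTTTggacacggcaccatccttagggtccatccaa
TRAJ50, chr14:54167590-54167652: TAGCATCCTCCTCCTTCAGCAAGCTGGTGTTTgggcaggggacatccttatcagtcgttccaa
TRAJ49, chr14:54168686-54168747: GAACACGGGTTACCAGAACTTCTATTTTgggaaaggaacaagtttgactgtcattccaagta
TRAJ48, chr14:54169808-54169868: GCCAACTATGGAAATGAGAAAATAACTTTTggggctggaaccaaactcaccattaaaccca

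All 8 segments were used in every all CD8 library. TRAJ49 took the largest mean share of reads, 2.69% ± 0.89 (SD, n = 8), with values from 1.502 to 3.915%. TRAJ50 followed at 2.04% ± 0.43 and TRAJ48 at 2.00% ± 0.62. Next came TRAJ57 at 1.73% ± 0.87, TRAJ56 at 1.63% ± 0.59 and TRAJ52 at 1.61% ± 0.31. TRAJ58 took 1.13% ± 0.58 and TRAJ53 the least, 0.887% ± 0.489. Each difference between neighbours in this order was smaller than the larger of their SDs. Just inside the limit of the set TRAJ48 ranged from 1.22 to 2.96%, and just outside it TRAJ47 ranged from 1.41 to 2.41% and TRAJ45 from 1.06 to 3.57%.

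Counted as distinct CDR3 sequences, TRAJ49 stood farther above the rest. It supplied 3313 sequences over the 8 libraries and 4.205% ± 1.399 of the sequences of a library, against 2.58% ± 0.47 for TRAJ50 and 1.93% ± 0.41 for TRAJ48. TRAJ49 sequences had few reads each, between 4.2 and 10.7 on average in a library. Only 33.87% of TRAJ49 sequences, holding 50.81% of its reads, ended as the germline segment does. Among sequences with the germline J end TRAJ49 made up 2.93% ± 0.91.

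The ends of TRAJ49 show what the other sequences were. The 5 commonest versions of its last 9 CDR3 bases in the all CD8 libraries are printed because they decide how many TRAJ49 clones are counted. Capitals mark bases that differ from the germline end, which is the version in lower case throughout.
TRAJ49 germline end: ttctatttt
TRAJ49 end with a first change: Gtctatttt
TRAJ49 end with another change: ttcGatttt
TRAJ49 end with both changes: GtcGatttt
TRAJ49 end with the second of these changes and another nearer the 3′ side: ttcGaGttt
The germline end was found in 1122 sequences, and the 4 others in 562, 561, 462 and 290. Of 3501 base differences in the 2191 TRAJ49 sequences with another end, 98.37% were T-to-G changes. A sequence with the germline end held 9.63 reads on average and one with another end 4.77. All 92 TRAJ49 sequences of the sorted libraries had the germline end. T-to-G changes were also the commonest in TRAJ48 (87.65%), TRAJ57 (90.25%), TRAJ58 (69.82%) and TRAJ56 (63.27%), whereas G-to-T changes led in TRAJ53 (74.42%) and TRAJ52 (55.88%). In TRAJ50 G-to-T (49.29%) and T-to-G (48.29%) changes were nearly equal.

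The effect of Themis deficiency on V-proximal J usage was compared in each tissue. In LN all CD8 cells the 8 segments together took 16.41 and 13.65% of reads in Themis+/+ mice and 12.64 and 11.37% in Themis-/- mice. In CD8 thymocytes they took 13.00 and 20.94% in Themis+/+ and 10.96 and 10.70% in Themis-/-. Both Themis-/- libraries lay below both Themis+/+ libraries in each tissue. The means were 12.01% ± 0.90 against 15.03% ± 1.95 in LN and 10.83% ± 0.19 against 16.97% ± 5.61 in thymus (SD, n = 2). The exact permutation test gave p = 0.333 in each tissue, the smallest value that 2 against 2 libraries allow.

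Over both tissues the 4 Themis-/- libraries averaged 11.4% ± 0.86 and the 4 Themis+/+ libraries 16% ± 3.61. The difference was -4.58 percentage points, with an exact two-sided permutation p = 0.0286, the smallest that 4 against 4 libraries allow. This pooled test was added after the values were seen. It exchanged genotype labels across tissues, as if thymus and LN libraries were interchangeable. The sources do not say whether thymus and LN libraries share mice. Without Themis+/+ thymus library 2, which held the highest share, the difference was -2.94. Leaving out any 1 of the 4 Themis-/- libraries raised p to between 0.0857 and 0.114. The remaining Themis-/- libraries still lay below all 4 Themis+/+ libraries in each case.

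**Figure D1:**
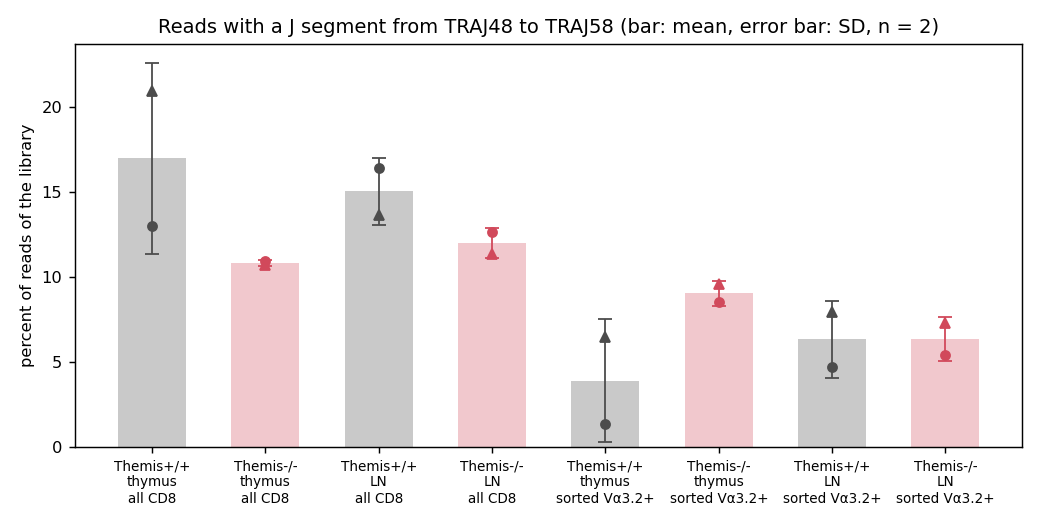
Percent of reads of a library with a V-proximal J segment, in each of the 16 libraries by genotype, tissue and cell subset, with the mean (bar) and SD (error bar) of 2 libraries. The 4 Themis-/- all CD8 libraries sit between 10.70 and 12.64%, below the 4 Themis+/+ ones at 13.00 to 20.94%, and the sorted libraries lie between 1.31 and 9.56%.

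Single segments differed in how far the genotypes stood apart. TRAJ53 took 1.23 and 1.03% of reads in the LN of Themis+/+ mice and 0.162 and 0.485% in the LN of Themis-/- mice. In thymus it took 1.04 and 1.75% in Themis+/+ and 0.694 and 0.695% in Themis-/-. All 4 Themis-/- libraries were thus below all 4 Themis+/+ libraries.

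TRAJ56 showed the same order. It took 1.75 and 1.81% in Themis+/+ LN, 1.09 and 1.10% in Themis-/- LN, 1.63 and 2.92% in Themis+/+ thymus and 1.350 and 1.395% in Themis-/- thymus. Of all 44 J segments, 3 were lower in all 4 Themis-/- libraries than in all 4 Themis+/+ libraries (6.82%), TRAJ53, TRAJ56 and, outside the set, TRAJ39. Another 2 segments were higher in all 4 Themis-/- libraries (4.55%), and neither was V-proximal. TRAJ57 came close to this, with 1.08 to 1.51% in Themis-/- libraries and 1.49 to 3.77% in Themis+/+ libraries. The other 5 V-proximal segments overlapped between genotypes over both tissues. TRAJ50, for example, took 1.36 to 2.82% in Themis-/- and 1.71 to 2.31% in Themis+/+. Within each tissue, TRAJ49 and TRAJ57 also had both Themis-/- libraries below both Themis+/+ libraries. This order within tissues was not counted over all 44 segments, so it cannot be set apart from that of other J segments.

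**Figure D2:**
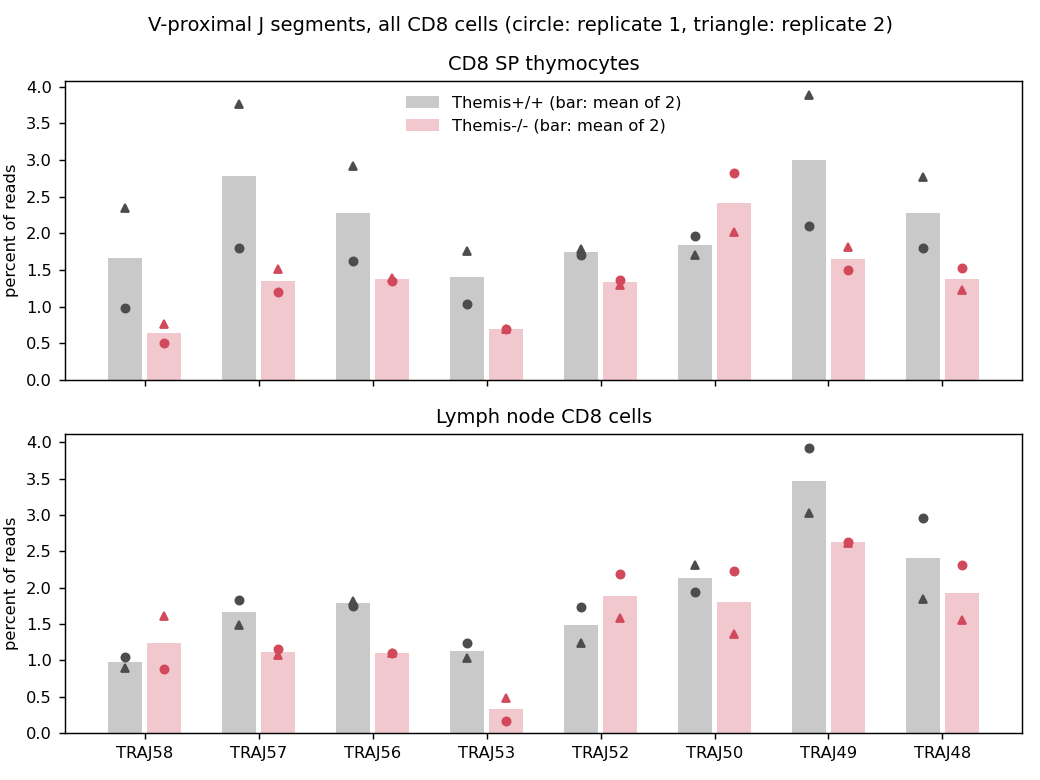
Percent of reads of each V-proximal J segment in the 8 all CD8 libraries, thymus and LN in separate panels, with circles for replicate 1 and triangles for replicate 2 and colour for genotype. TRAJ53 and TRAJ56 are lower in each Themis-/- library than in each Themis+/+ library of the same tissue, while TRAJ50 and TRAJ52 overlap over the 2 tissues.

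Segment by segment, edgeR's quasi-likelihood test on reads over all J segments called no member changed by genotype. In thymus all CD8 cells 0 of 8 members and 0% of the 44 segments tested had an adjusted p under 0.05, and DESeq2 also called 0. At an unadjusted p under 0.05, 3 members passed in edgeR, among 7 of the 44 segments, and 1 in DESeq2, which was its only such segment. Their log2 fold changes, Themis-/- against Themis+/+, were -1.37 for TRAJ58, -1.02 for TRAJ57 and -0.83 for TRAJ49, each with an edgeR adjusted p of 0.227. TRAJ53 followed at -0.98 and TRAJ56 at -0.70, and TRAJ50 was at 0.44. These values rest on single libraries. Without Themis+/+ thymus library 1, edgeR called TRAJ49, TRAJ57 and TRAJ58 lower, among 9 of 44 segments called, 4 of them lower. Without Themis+/+ thymus library 2 it called 0 of 43 segments, and the log2 fold changes were -0.56 for TRAJ58, -0.36 for TRAJ57, -0.29 for TRAJ49, -0.52 for TRAJ53 and -0.18 for TRAJ56, each with an edgeR adjusted p of 0.882.

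In LN all CD8 cells edgeR called 0 of 8 members and 0% of 44 segments, and DESeq2 0, with 1 member at an unadjusted p under 0.05 in each tool, among 4 segments in edgeR and 2 in DESeq2. That member in edgeR was TRAJ53, with a log2 fold change of -1.72 (SE 0.56) and an edgeR adjusted p of 0.145. Without Themis-/- LN library 2 it was -2.66 with an edgeR adjusted p of 0.0208, and 2 of 44 segments were called. Without Themis-/- LN library 1 it was -1.24 with an edgeR adjusted p of 0.324, and without Themis+/+ LN library 1 or 2 the edgeR adjusted p was 0.439 or 0.0756. On distinct sequences the TRAJ53 value was -0.88 with an edgeR adjusted p of 0.281. TRAJ56 had a log2 fold change of -0.60, TRAJ57 of -0.47 and TRAJ58 of 0.45.

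LN and thymus were compared within each genotype. The combined share in Themis+/+ all CD8 cells overlapped between tissues, with a difference of -1.94 points, LN minus thymus, and an exact permutation p of 1. In Themis-/- both LN libraries lay above both thymus libraries, by 1.18 points, with an exact permutation p of 0.333. edgeR called 0 of 8 members and 0% of segments in either genotype, DESeq2 called 0, and no member had an unadjusted p under 0.05 in either tool. TRAJ58 went from 0.974 and 2.35% of reads in Themis+/+ thymus to 1.046 and 0.896% in Themis+/+ LN. It went from 0.508 and 0.761% in Themis-/- thymus to 0.879 and 1.61% in Themis-/- LN. The difference between genotypes in this tissue change was 1.81 on the log2 scale, with an edgeR adjusted p of 0.970. That was the 1 member with an unadjusted p under 0.05 among 0 called of 8 (0% of 44 segments); DESeq2 had 0 at either threshold.

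Sorted Vα3.2+ cells used V-proximal J segments less than all CD8 cells. The share of reads was 4.70 and 7.93% in Themis+/+ LN, 5.41 and 7.27% in Themis-/- LN, 1.31 and 6.43% in Themis+/+ thymus and 8.52 and 9.56% in Themis-/- thymus. Every sorted library was below every all CD8 library of its tissue. In LN the 4 sorted libraries averaged 6.33% ± 1.52 and the 4 all CD8 libraries 13.5% ± 2.14. In thymus the averages were 6.46% ± 3.67 and 13.9% ± 4.81. Each comparison, added after the values were seen, had an exact two-sided permutation p of 0.0286, the smallest possible. Labels were exchanged across genotypes, as if Themis+/+ and Themis-/- libraries were interchangeable. In LN p stayed past the threshold without any 1 library. In thymus it rose to 0.0857 without Themis+/+ sorted library 1 and to 0.0571 without Themis+/+ sorted library 2 or Themis+/+ all CD8 library 2.

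The sort selects a chain of the TRAV9 family, so the share was also taken among all TRAV9 sequences of the all CD8 libraries. This V set is wider than the sorted one. The paper describes the antibody as specific for TRAV9N-3. Of the 2397 TRAV9 sequences, 516 had TRAV9N-3 and 558 TRAV9D-3 as first hit. V-proximal J segments were found in 15.7 and 8.33% of these in Themis+/+ LN and in 7.04 and 12.9% in Themis-/- LN. In thymus they were found in 6.36 and 14.1% in Themis+/+ and in 7.65 and 9.03% in Themis-/-. In the sorted libraries they made up 4.07 to 8.48% of sequences, a range that overlaps the values of this wider TRAV9 set. Of the 348 V-proximal J sequences of the sorted libraries, 337 (96.84%) had a TRAV9 first hit, chiefly TRAV9D-3 (140), TRAV9N-3 (129) and TRAV9-4 (59).

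The genotypes did not order the sorted libraries as they did all CD8 cells. In LN the Themis-/- and Themis+/+ libraries overlapped, with a difference of 0.0228 points and an exact permutation p of 1. In thymus both Themis-/- libraries were above both Themis+/+ libraries, by 5.17 points, with an exact permutation p of 0.333. These thymus libraries were small, holding 5 and 15 V-proximal J sequences in Themis+/+ and 6 and 37 in Themis-/-. In Themis-/- sorted thymus library 1 a single TRAJ53 sequence took 2.88% of reads, and the most abundant sorted V-proximal sequence, which carried TRAJ49, took 3.55%. Counted as distinct sequences the thymus difference was 1.95 points. edgeR called 0 of 8 members and 0% of 43 segments in either tissue, DESeq2 called 0, and no member had an unadjusted p under 0.05. On simulated sorted LN counts edgeR called 0 of 100 segments changed by 2 on the log2 scale. The absence of calls in sorted cells therefore cannot show that usage was unchanged. LN minus thymus was 2.45 points in sorted Themis+/+ cells, where the tissues overlapped (exact permutation p = 0.667), and -2.70 points in sorted Themis-/- cells, where they did not (exact permutation p = 0.333). For these tissue comparisons, and for their difference between genotypes, edgeR and DESeq2 called 0 of 8 members (0% of 43 segments in edgeR), and no member had an unadjusted p under 0.05.

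For single segments, edgeR on reads called 0 of 8 members between sorted and all CD8 cells in thymus (0% of 44 segments) and 0 of 8 in LN (11.4%), with no member at an unadjusted p under 0.05. DESeq2 called TRAJ58 in thymus and 0 in LN, with 2 and 0 members at an unadjusted p under 0.05. Over all 44 segments DESeq2 called 7 in thymus and 9 in LN, with 12 at an unadjusted p under 0.05 in each. TRAJ58 was at 0 to 0.658% of reads in sorted thymus libraries and 0.508 to 2.35% in the matching all CD8 libraries, and its edgeR log2 fold change was -2.15. The fold changes were -2.23 for TRAJ52 and -0.48 for TRAJ57 in thymus and -1.68 for TRAJ48 in LN. Single libraries moved the thymus values far. Leaving out 1 library at a time gave -7.01 to -1.73 for TRAJ58, -6.92 to -1.83 for TRAJ52 and -6.61 to -0.09 for TRAJ57. Without Themis+/+ sorted thymus library 2 edgeR called 6 members among 21 of 44 segments, 18 of them lower. Without Themis-/- sorted thymus library 2 it called 5 members among 17 segments, 15 of them lower, and without Themis+/+ sorted thymus library 1 it called 1 member among 3 segments.

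On distinct sequences the numbers of called segments were higher. In LN edgeR called TRAJ48, TRAJ49, TRAJ50, TRAJ52, TRAJ53 and TRAJ56 lower in sorted cells, 6 of 8 members, when 39.5% of the 43 segments tested were called lower. The largest fold change was that of TRAJ50, -2.66 on the log2 scale (SE 0.41), with an edgeR adjusted p of 3.71e-09. In thymus 4 members, TRAJ48, TRAJ49, TRAJ50 and TRAJ56, were called lower, when 20.9% of segments were. With only sequences that had the germline J end, TRAJ49 was no longer called in either tissue. The calls were then TRAJ48, TRAJ50, TRAJ52, TRAJ53 and TRAJ56 in LN (37.2% of segments called lower) and TRAJ48, TRAJ52, TRAJ53 and TRAJ56 in thymus (20.9%).

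The V partners of V-proximal J segments differed from those of other J segments. In all CD8 libraries a V segment of the group TRAV17 to TRAV21, which lies close to the J cluster, was joined to 12.95% ± 2.21 of V-proximal J sequences and to 1.27% ± 0.44 of all others (SD, n = 8). The share was higher for V-proximal J in 8 of 8 libraries, by 11.7 points on average, with an exact sign-flip permutation p of 0.00781, the smallest that 8 libraries allow. The share was higher at the end of the set that faces the V segments. It was 8.79% for TRAJ48, 8.96% for TRAJ49, 8.44% for TRAJ50 and 7.95% for TRAJ52. It was then 14.4% for TRAJ53, 22.1% for TRAJ56, 25.95% for TRAJ57 and 21.3% for TRAJ58. The 3 segments at the 5′ end were thus each above 20% and the 4 segments from TRAJ48 to TRAJ52 each below 10%.

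Just outside the set TRAJ47 was at 6.26% and TRAJ45 at 5.41%, and the 21 segments numbered under 31 were at 0.893% or less. Over 43 J segments the Spearman correlation of number with share was 0.854. The segments share libraries, so this describes the order and is not a test.

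**Figure D3:**
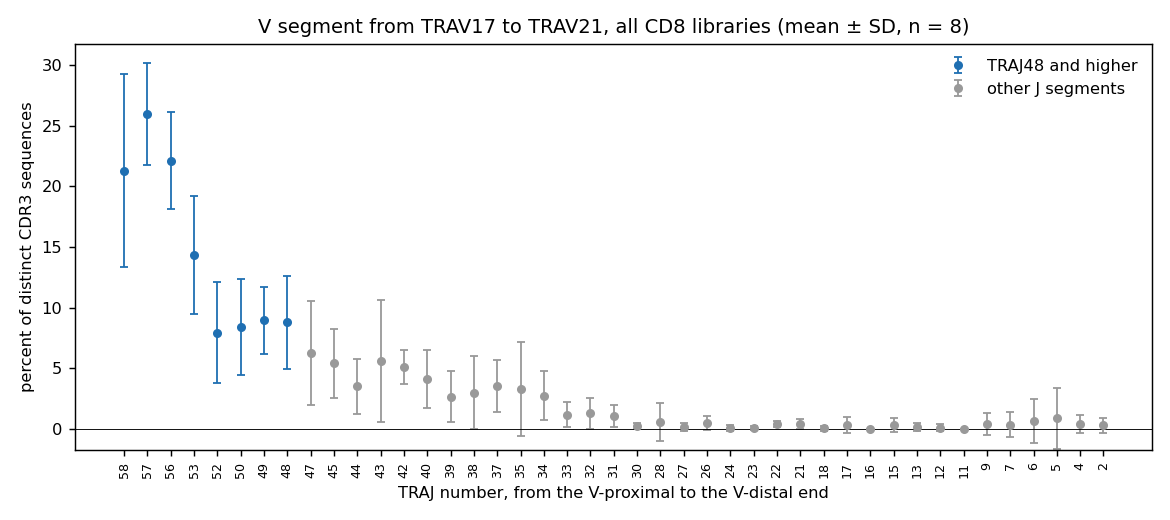
Percent of distinct CDR3 sequences of each J segment that carry a V segment from TRAV17 to TRAV21, as mean and SD over 8 all CD8 libraries, with J segments in order along the cluster. The V-proximal segments TRAJ56, TRAJ57 and TRAJ58 are above 20%, and segments numbered under 31 stay at or below 0.893%.

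Seen from the V side, TRAV19, TRAV21 and TRAV17, which lie near the J cluster, were joined to V-proximal J in most of their sequences. TRAV19, about 312 kb before TRAJ58, had a V-proximal J in 816 of its 1145 sequences (71.3%), and 47.5 to 77.8% in single libraries. The value was 63.0% for TRAV21 (281 kb before TRAJ58) and 55.1% for TRAV17 (350 kb). The rarely used TRAV18 and TRAV20 had V-proximal J in 11 of 15 and 17 of 40 sequences. TRDV1 and TRDV2, δ-chain V segments in the same region, had 63.9% of 540 and 65.7% of 265. The farthest families, TRAV1 and TRAV2, lie 1728 and 1589 kb before TRAJ58 and were picked out after their values were seen. They had no V-proximal J in 536 and 373 sequences, which allows shares of up to 0.560 and 0.804%. Families with copies spread over the locus lay between, such as TRAV4 at 22.5%, TRAV12 at 9.62% and TRAV7 at 7.96%. They did not follow the order of their nearest copies. TRAV16, whose nearest copy lies 806 kb before TRAJ58, was at 19.2%. TRAV3 (nearest copy 380 kb) was at 9.86% and TRAV8 (418 kb) at 6.32%. Of the V-proximal J sequences 16.38% had several equally good V hits, of which the first was used.

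By family, TRAV6 was the commonest partner of V-proximal J (13.3% ± 2.63 of sequences), followed by TRAV12 (11.6%) and TRAV14 (11.5%). Other J segments were led by TRAV12 (18.03%), TRAV7 (14.6%) and TRAV6 (12.9%). TRAV19 was the first partner of TRAJ56 (13.3% ± 6.03) and of TRAJ57 (11.9% ± 3.95), and was 0.525% among other J segments. TRAJ58 was joined most to TRAV12 (16.2%), then TRAV6 (12.7%) and TRAV14 (11.7%), with TRAV21 next at 9.19%. TRAJ52 had the highest share of TRAV6, 21.9% ± 9.15. TRAJ49 was joined to TRAV6 (13.4%), TRAV13 (13.0%) and TRAV14 (11.6%), and TRAJ53 to TRAV6 (14.4%), TRAV16 (12.3%) and TRAV14 (12.2%). TRAJ50 led with TRAV14 (13.97%) and TRAJ48 with TRAV12 (15.7%).

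The share of TRAV17 to TRAV21 among V-proximal J sequences was also read by genotype. It was 15.0 and 16.1% in Themis+/+ LN, 13.3 and 13.3% in Themis+/+ thymus, 9.02 and 12.9% in Themis-/- LN and 10.98 and 12.95% in Themis-/- thymus. All 4 Themis-/- libraries were below the 4 Themis+/+ libraries. The means were 11.5% ± 1.87 and 14.4% ± 1.39, with an exact permutation p of 0.0286, the smallest possible, in a test added after the values were seen. This test, and that for other J segments below, exchanged labels across tissues as if thymus and LN libraries were interchangeable. The call was lost when sequences were weighted by their reads (-3.09 points, exact permutation p = 0.171), among sequences with the germline J end (-3.11 points, exact permutation p = 0.0857), and without any 1 of the 4 Themis+/+ libraries or Themis-/- LN library 1. Among other J segments the same V segments were also lower in Themis-/-, 0.934% ± 0.12 against 1.60% ± 0.38, with an exact permutation p of 0.0286, the smallest possible.

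**Figure D4:**
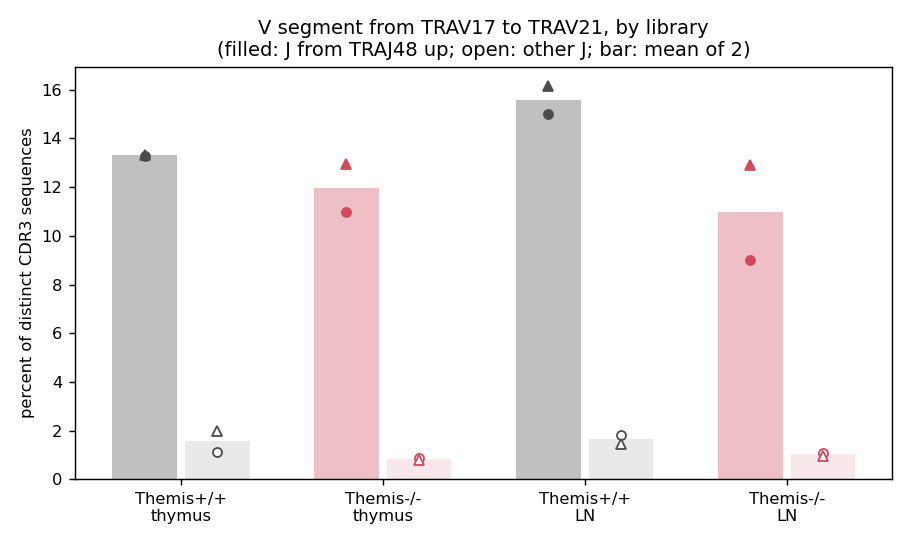
Percent of distinct CDR3 sequences with a V segment from TRAV17 to TRAV21 in each all CD8 library, filled symbols for V-proximal J and open symbols for other J, with bars for the mean of 2 libraries. V-proximal J lies between 9.02 and 16.1% and other J between 0.797 and 1.98% in all 8 libraries.

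CDR3s with V-proximal J were longer. Their mean length in all CD8 libraries was 42.49 ± 0.10 bp against 40.23 ± 0.11 bp for other J (SD, n = 8). The difference was 2.26 bp and held in 8 of 8 libraries, with an exact sign-flip permutation p of 0.00781. The same germline J segments enter every library, so this test cannot separate the set from the germline length of its segments. TRAJ53, which carries 35 germline bases inside CDR3, gave the longest CDR3s at 45.5 bp, followed by TRAJ52 (35 bases) at 44.8 bp and TRAJ50 (32 bases) at 44.5 bp. TRAJ56, TRAJ57 and TRAJ58, with 32 bases each, gave 43.6, 43.5 and 43.5 bp. TRAJ49, with 28 bases, gave 40.0 bp and TRAJ48, with 30, gave 40.5 bp. Thus 6 of 8 members were above the median of other J segments, 40.8 bp, and TRAJ49 and TRAJ48 were not. The median number of germline bases inside CDR3 was 32 for the members and 29 for the others. Over 43 segments the Pearson correlation of germline bases with mean length was 0.944, as a description.

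**Figure D5:**
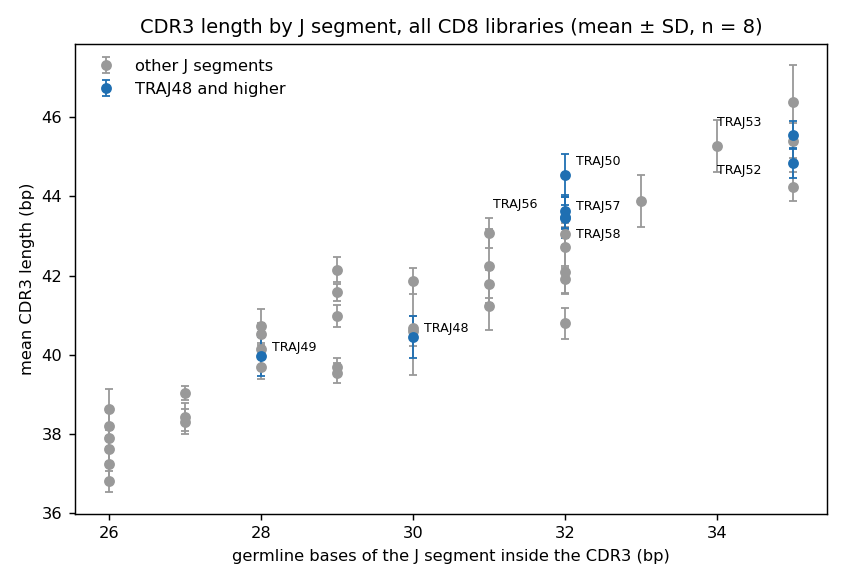
Mean CDR3 length of each J segment (bp, mean and SD over 8 all CD8 libraries) against the number of its germline bases that fall inside CDR3. Length follows the germline bases, from TRAJ49 at 28 bases and 40.0 bp to TRAJ53 at 35 bases and 45.5 bp, for V-proximal and other J segments alike.

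The mean length of V-proximal J sequences was 42.4 and 42.6 bp in Themis+/+ LN, 42.5 and 42.4 bp in Themis-/- LN, 42.6 and 42.5 bp in Themis+/+ thymus and 42.6 and 42.4 bp in Themis-/- thymus. The genotypes overlapped in both tissues, and so did the tissues in both genotypes, with exact permutation p = 0.667 in all 4 comparisons. In the sorted libraries the mean over libraries was 42.2 ± 0.64 bp for V-proximal J and 40.3 ± 0.25 bp for other J.

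No difference in N additions between V-proximal J and other J was found beyond the spread of libraries. The mean was 2.02 ± 0.11 bases for V-proximal J and 2.00 ± 0.13 for other J, a difference of 0.0266 bases with an exact sign-flip permutation p of 0.531, positive in 3 of 8 libraries. Other J includes TRAJ24, with 5.99 bases counted as N additions. Without TRAJ24, an alternative chosen after seeing the data, the difference ran from -0.0356 to 0.253 bases in single libraries. CDR3s with no N addition made up 34.6% ± 1.85 and 33.6% ± 1.79, with an exact sign-flip permutation p of 0.133. Among sequences with the germline J end this difference was 1.81 points, with an exact sign-flip permutation p of 0.0313, and without Themis-/- thymus library 2 it was 1.24 points, with an exact permutation p of 0.0469. Among the members TRAJ53 had the fewest N additions (1.66 ± 0.28 bases) and TRAJ50 the most (2.25 ± 0.38). Germline J trimming averaged 2.76 ± 0.17 bases in V-proximal J and 2.53 ± 0.07 in other J, a difference that was not tested.

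By group, V-proximal J sequences held 1.98 and 2.06 N additions in Themis+/+ LN and 1.95 and 1.80 in Themis-/- LN. In thymus they held 2.04 and 2.11 in Themis+/+ and 2.14 and 2.10 in Themis-/-. Without overlap, the Themis-/- LN libraries differed by -0.149 bases from Themis+/+ LN and by -0.247 bases from Themis-/- thymus. Each had an exact permutation p of 0.333, the smallest possible. The genotypes overlapped in thymus and the tissues overlapped in Themis+/+, each with an exact permutation p of 0.667.

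The CDR3 nucleotide sequences found in most all CD8 libraries are printed for each member to show what a recurrent V-proximal join looks like. Capitals mark bases of the germline J segment, and lower case letters are the V segment's part, with no base left between the aligned V and J in any of the 8.
TRAJ58 with TRAV6, in 4 libraries: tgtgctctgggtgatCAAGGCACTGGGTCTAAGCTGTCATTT
TRAJ57 with TRAV6 or TRAV12, in 7 libraries: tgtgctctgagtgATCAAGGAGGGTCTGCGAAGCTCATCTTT
TRAJ56 with TRAV19, in 5 libraries: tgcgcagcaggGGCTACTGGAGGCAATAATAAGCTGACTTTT
TRAJ53 with TRAV14, in 5 libraries: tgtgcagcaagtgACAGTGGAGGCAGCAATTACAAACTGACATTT
TRAJ52 with TRAV3, in 5 libraries: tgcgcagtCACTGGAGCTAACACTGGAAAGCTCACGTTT
TRAJ50 with TRAV4, in 5 libraries: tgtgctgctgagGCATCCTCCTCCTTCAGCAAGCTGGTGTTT
TRAJ49 with TRAV12, in 5 libraries: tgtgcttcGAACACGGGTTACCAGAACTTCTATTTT
TRAJ48 with TRAV14, in 6 libraries: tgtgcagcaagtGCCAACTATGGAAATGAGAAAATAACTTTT
The TRAJ56 sequence joins the V-proximal J to TRAV19. Each of the 8 was rare, with at most 0.0976% of the reads of a library.

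V-proximal J sequences were shared between libraries at lower rates than other sequences. Of 10719 distinct V-proximal sequences over the all CD8 libraries, 666 (6.21%) were found in at least 2 libraries, against 8.74% of the 59484 with other J. In a single library 12.4 to 14.7% of V-proximal sequences were also found in another library, against 17.5 to 22.7% of other sequences. Since libraries share these sequences with each other, no test was run. No V-proximal sequence was found in all 8 libraries, against 10 with other J.

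In the sorted libraries the V-proximal sequences found in most libraries were each present in 3 of 8, and 3 of them are printed as examples of joins that recur in the sorted libraries. Capitals mark germline J bases as before, and N additions are the last lower case bases.
TRAJ57 with TRAV9-4, 2 N additions: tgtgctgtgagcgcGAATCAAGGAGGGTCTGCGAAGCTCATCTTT
TRAJ49 with TRAV9N-3, 1 N addition: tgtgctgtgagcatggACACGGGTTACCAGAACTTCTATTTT
TRAJ49 with TRAV9D-3, no N addition: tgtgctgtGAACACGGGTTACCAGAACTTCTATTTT
The TRAJ57 sequence took 0.519% of reads in Themis+/+ LN library 2, 0.0680% in Themis-/- LN library 2 and 0.353% in Themis-/- thymus library 2. The longer TRAJ49 sequence took 0.593 and 0.0379% in the Themis+/+ LN libraries and 0.0499% in Themis-/- LN library 2. The shorter one took 0.162% in Themis+/+ LN library 2 and 0.162 and 0.00907% in the Themis-/- LN libraries. All 3 were thus seen in both genotypes, and neither TRAJ49 sequence was seen in a sorted thymus library. Sorted thymus libraries held only 5 to 37 V-proximal J sequences, against 50 to 108 in sorted LN libraries, so absence there says little.

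Across the 8 all CD8 libraries the J segments whose log2 share of reads followed the combined V-proximal share most closely were TRAJ39 (Pearson r = 0.830, n = 8), TRAJ45 (0.742) and TRAJ26 (0.732). TRAJ12 (-0.935), TRAJ7 (-0.924) and TRAJ9 (-0.923) ran the opposite way, with larger absolute values. These shares come from the same libraries and add up to a whole, so the values are a description.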

How the data were processed

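TCRα libraries from 16 samples were made by the authors with template switching (5′ RACE), sequenced on a MiSeq and turned into clone tables with MiXCR. Its version is not named in the sources used. The submitters' processing notes name mm9 and CASAVA 1.4. Each deposited table gives per clone a read count and a fraction, which equals the count divided by the table's total, with V and J hits and the CDR3. Fractions were recomputed from the deposited counts.

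J usage was tested on read counts per J segment with edgeR 4.0.16 (quasi-likelihood, R 4.3.3), TMM scaling, one fit over the 4 groups of a cell subset, or over all 8 groups for sorted against all CD8, keeping segments that reached 10 reads in 2 or more libraries, and Benjamini-Hochberg adjusted p under 0.05. An SE given with an edgeR fold change is its absolute value divided by the square root of the F statistic. The fit itself does not estimate it. DESeq2 1.42.0 was an alternative. Single values per library were compared by exact two-sided permutation tests (Python 3.11.15, numpy 2.4.6, pandas 2.3.3, matplotlib 3.10.9). CDR3 length, N additions (bases between the aligned V and J) and V families were taken over distinct sequences. J sequences came from GENCODE M21 on GRCm38. On simulated counts for thymus all CD8 (44 segments, 20 draws), 33 of 100 segments changed by 1 and 93 of 100 changed by 2 on the log2 scale were called, with 8 of 680 unchanged ones. For sorted LN (43 segments) 0 of 100, 0 of 100 and 2 of 660 were called.

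The members, gene lists and tests were chosen with earlier results of these data known. Named were all members, the 3 commonest V families of each and the CDR3 of each found in most all CD8 libraries. Also named were the 3 most abundant CDR3s of those found in most sorted libraries, the 3 J segments most alike and 3 that ran the opposite way. Alternatives were DESeq2, no low-count filter, only the 2 groups compared, distinct sequences in place of reads, weighting by reads, leaving out single-read sequences, the largest sequence of each J, or each library, and a replicate block. Chosen after seeing the data were the 4 against 4 tests, the germline J end, leaving out TRAJ24 and the block with crossed numbers.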

Additional observations from a re-analysis of the deposited data

Results flagged for a closer look

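The number of N additions in V-proximal J sequences minus that in other J sequences of the same thymus all CD8 library was 0.155 and 0.207 bases in the 2 Themis-/- libraries and -0.0717 and -0.0477 bases in the 2 Themis+/+ libraries. Every library of one genotype lay on the opposite side of 0 from every library of the other, which is why these values are listed. The difference between genotypes was not tested. In LN the genotypes did not split in this way, with 0.108 and -0.0118 bases in Themis-/- and -0.0875 and -0.0388 in Themis+/+. TRAJ24, outside the V-proximal set, had 5.99 bases counted as N additions on average, far above any other segment. Its germline J trimming averaged 0.0296 bases, and its mean CDR3 length was 43.05 bp with 32 germline bases inside CDR3. Whether the bases counted for TRAJ24 are true N additions was not tested. With TRAJ24 left out, an alternative chosen after seeing the data, the values were 0.200 and 0.253 in Themis-/- and -0.0209 and 0.000352 in Themis+/+.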

How the results depend on the processing

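The cause of the shifts below was not tested. For sorted against all CD8, the number of members called by edgeR on reads was 0. Distinct sequences gave 4 (thymus) and 6 (LN), among 13 and 26 of 43 segments called. Those with the germline J end gave 4 and 5, among 17 and 30 of 43. Leaving out the largest sequence of each J gave 4 in thymus, among 12 of 43 segments called, 11 of them lower. DESeq2 gave 1 in thymus, among 7 of 44. Distinct sequences turned the log2 fold change by genotype of TRAJ50 in thymus to -0.48 and of TRAJ58 in LN to -0.19, and leaving out the largest sequence turned that of TRAJ50 to -0.0274. The replicate numbers are not stated to mark shared mice, and deviations of same-numbered libraries correlated at -0.129 to 0.439. With a replicate block edgeR called 1 member, TRAJ53, by genotype in LN (log2 fold change -1.86, adjusted p 0.0455), among 4 of 44 segments called, and otherwise the counts of members called were 0 as without it. Crossed numbers, tried for LN against thymus in Themis-/- all CD8, called 0.

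Combined shares in points moved under distinct sequences, with only the germline J end in second place, to 1.94 and 2.52 (LN minus thymus, Themis-/- all CD8), 1.95 and 1.93 (genotype, sorted thymus), -0.0485 and -0.0911 (LN minus thymus, Themis-/- sorted) and -0.172 and -0.189 (genotype, sorted LN, reversed). Without the largest sequence of each J the last 2 were -0.367 and -0.0753. Among germline-end sequences the N addition difference reversed to -0.0583 bases and the share without N additions reached 1.81 points.

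Differences in mean length were, in the order genotype in thymus, genotype in LN, tissue in Themis+/+ and tissue in Themis-/-, 0.0674, 0.270, 0.0279 and 0.230 bp weighted by reads and -0.239, 0.0361, -0.196 and 0.0791 bp with the germline J end, and the tissue differences were 0.0432 and 0.0158 bp without single-read sequences. Differences in N additions were 0.239, -0.245, 0.0299 and -0.454 weighted by reads, 0.126 (genotype, thymus) and 0.0120 (tissue, Themis+/+) without single-read sequences, and -0.0376 (genotype, LN) and -0.208 (tissue, Themis+/+) with the germline J end. The genotype difference of TRAV17 to TRAV21 partners was -3.09 weighted by reads and -3.11 with the germline J end.

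Leaving out 1 library at a time gave 0 to 3 members called by genotype in thymus, 0 to 1 in LN and 0 to 6 for sorted against all CD8 in thymus. Combined shares ranged from -10.1 to -2.18 (genotype, thymus), -4.40 to -1.64 (genotype, LN), 0.543 to 1.82 (tissue, Themis-/-), 2.61 to 7.73 (genotype, sorted thymus), -5.91 to 2.03 (tissue, Themis+/+), -1.59 to 1.64 (genotype, sorted LN), -0.116 to 5.01 (tissue, Themis+/+ sorted), -8.51 to -5.10 (sorted minus all, thymus) and -5.58 to -2.94 (genotype, both tissues). Mean length ranged from -0.178 to 0.00750, -0.158 to 0.0440, -0.174 to 0.0287 and -0.137 to 0.0481 bp in the order above, N additions by genotype from 0.0127 to 0.0853 (thymus) and -0.220 to -0.0777 (LN), the share without N additions from 0.583 to 1.24 points, partner shares from -3.47 to -2.16, and TRAJ58 by genotype in LN from -0.000337 to 0.71 on the log2 scale.

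Excluding equal second J hits changed nothing, since none existed, and the filter and the groups fitted changed no member call. Groups of 2 libraries cannot reach p under 0.05 in the exact tests, and sorted thymus libraries hold few V-proximal sequences.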
